A study of Mus musculus with 36 samples.

Results

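The NR4A receptors and 7 further immediate early genes were followed across gastrocnemius muscle of mice that rested or ran on wheels. The 10 genes, Nr4a1, Nr4a2, Nr4a3, Fos, Junb, Jun, Egr1, Atf3, Ier2 and Btg2, were taken by symbol from the 46893 features of the gene count table. All 10 were found, and 9 of them reached the minimum mean count of 25 over the 36 libraries that was asked of a tested gene, as did 12053 features in all. Nr4a2 did not, with a mean count of 14.0. The muscle came from 36 wild type C57BL/6 mice, all male and 3 to 4 weeks old at the start, in 6 groups of 6, with 1 library per mouse. NFD-C was sedentary on the AIN93G diet and HFD-C was sedentary on the high-fat diet. HFD-25%, HFD-50% and HFD-75% mice ran 2.1, 4.2 and 6.3 km/day on the high-fat diet for 12 weeks and HFD-U mice ran 8.3 km/day on it, so that no running group received the AIN93G diet. HFD-U ran without restriction, and a brake stopped the wheel of the other runners once each mouse had covered its daily distance. The brake was released at lights off. All mice were killed under ketamine and xylazine, and the time between the last run and the sampling, as well as the time of day of sampling, is not given in the sources used here. The same mouse numbers, 1 to 6, were used in each group.

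Immediate early genes are transcribed within minutes of a stimulus from factors that are already in the cell, and their short-lived mRNAs disappear soon afterwards. In muscle, contraction raises calcium, cyclic AMP and MAP kinase signalling, which act on CREB with its CRTC coactivators, on MEF2 and on serum response factor with its ternary complex partners. Nr4a1, Nr4a2 and Nr4a3 encode orphan nuclear receptors that bind DNA as monomers or dimers, or with RXR, and whose activity depends largely on how much of them is made. NR4A1 and NR4A3 are known in skeletal muscle for their induction by beta-adrenergic signalling and exercise and for their control of genes of glucose use. FOS, JUNB and JUN are subunits of the AP-1 transcription factor, EGR1 is a zinc finger activator, ATF3 is a stress-induced bZIP factor that mostly represses, IER2 is a nuclear protein, and BTG2 restrains proliferation and recruits the CCR4-NOT deadenylase to mRNAs.

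Between 13060090 and 27981702 reads were counted on genes in a library. Markers of skeletal muscle fibres (Acta1, Ckm, Myh4, Myh1, Myh2, Tnnt3, Mylpf and Atp2a1) summed to between 85961 and 172328 CPM (counts scaled to a common library size) in all 36 libraries. The 4 neutrophil markers (S100a8, S100a9, Ly6g and Retnlg) summed to 12.8 CPM in HFD-50% replicate 4, 2.05 in HFD-50% replicate 5 and 0 to 1.04 CPM in the other 34 libraries, with Ly6g at 0 throughout. A set of 4 features linked to ribosomal RNA took between 0.393 and 3.64% of the counts. It was high in 10 libraries, namely all 6 of NFD-C and 4 of the 6 of HFD-C, and low in HFD-C replicates 5 and 6 and in all 24 running mice, so that this share and running cannot be told apart except within HFD-C. Mice numbered 1 deviated together from their groups, with a mean correlation of 0.455 over 15 pairs of groups. In whole muscle, fewer cells of a type and less RNA per cell cannot be told apart. A difference between 2 groups passed where the quasi-likelihood test of edgeR gave an unadjusted p of at most 0.05, the limit used in the study, and its adjusted p, over all genes, is given beside it. A two-sided exact permutation test over the 12 mice of the pair is given for single members. Its smallest possible p is 0.00216.

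The regulatory sequence of the members is shown here because the genes share inputs that act through short DNA motifs. The RefSeq promoter table (build GRCm38.p6) held 1 promoter for each of 8 members, all but Egr1 and Ier2. The 250 bases before the start were searched on both strands. The sequences of the 3 NR4A genes, and of Fos and Junb as members that varied together between mice, are printed 5′ to 3′ on the gene's strand, with capitals for TGACG (part of a cyclic AMP response element), TGACGTCA (the whole element), the related TGCGTCA, the AP-1 motif TGANTCA, the CArG box (serum response factor) and GCGNGGGCG (EGR) on either strand.
Nr4a1, chr15:101266596-101266845, + strand: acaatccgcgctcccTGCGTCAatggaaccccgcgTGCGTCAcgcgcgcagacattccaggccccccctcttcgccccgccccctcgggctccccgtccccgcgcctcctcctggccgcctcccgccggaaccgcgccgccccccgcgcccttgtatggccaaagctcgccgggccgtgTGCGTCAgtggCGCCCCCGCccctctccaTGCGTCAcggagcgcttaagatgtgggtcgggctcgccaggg
Nr4a2, chr2:57124004-57124253, - strand: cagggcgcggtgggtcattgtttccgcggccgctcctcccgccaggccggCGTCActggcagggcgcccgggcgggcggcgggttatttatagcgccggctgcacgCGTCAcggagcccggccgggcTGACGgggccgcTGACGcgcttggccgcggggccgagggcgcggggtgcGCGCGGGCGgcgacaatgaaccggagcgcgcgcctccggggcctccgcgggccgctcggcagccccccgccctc
Nr4a3, chr4:48045055-48045304, + strand: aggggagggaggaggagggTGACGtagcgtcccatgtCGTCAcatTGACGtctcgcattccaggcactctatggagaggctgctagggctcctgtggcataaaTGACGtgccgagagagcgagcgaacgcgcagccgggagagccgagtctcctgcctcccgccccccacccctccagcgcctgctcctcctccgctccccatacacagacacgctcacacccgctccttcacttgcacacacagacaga
Fos, chr12:85473640-85473889, + strand: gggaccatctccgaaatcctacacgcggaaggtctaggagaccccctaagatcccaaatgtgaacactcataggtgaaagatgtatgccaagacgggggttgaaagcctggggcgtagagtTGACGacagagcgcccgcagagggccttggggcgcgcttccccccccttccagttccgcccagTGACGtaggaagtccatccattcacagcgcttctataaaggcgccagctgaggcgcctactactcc
Junb, chr8:84978749-84978998, - strand: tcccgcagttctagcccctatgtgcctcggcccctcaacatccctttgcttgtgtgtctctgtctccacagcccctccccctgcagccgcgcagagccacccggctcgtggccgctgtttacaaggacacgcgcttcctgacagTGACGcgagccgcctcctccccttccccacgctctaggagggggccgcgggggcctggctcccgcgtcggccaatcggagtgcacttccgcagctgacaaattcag

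TGACG was present before 7 of the 8 member starts, all but that of Jun, whereas 17.8% of the 32851 promoters in the table held it. Each of the 3 NR4A promoters had 4 copies. In Nr4a1 all 4 copies lay within TGCGTCA, which occurred in no other member and in 1.75% of all promoters, and the copy nearest the start ended 36 bases before it. The whole element TGACGTCA was present in Btg2, from 166 to 159 bases before the start, and in 1.55% of promoters. GCGNGGGCG was found in Nr4a1, Nr4a2 and Btg2 and in 4.7% of promoters. TGANTCA, the CArG box and the NR4A element AAAGGTCA were in none of these 8 windows and in 6.75, 1.47 and 1.34% of all promoters. TATAAA occurred in Fos, from 33 to 28 bases before the start, and in Nr4a2, and in 12.4% of promoters. Such matches describe letters and are not evidence of binding.

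In level per length, Jun and Nr4a1 stood far above the other members, at means of 35.6 and 27.2 CPM per kilobase of exon over the 36 mice, higher than 90.2 and 87.6% of the genes tested. Fos followed at 7.90, and Btg2, Junb and Ier2 lay between 5.26 and 5.93 CPM per kilobase. Egr1 and Atf3 were at 3.08 and 2.97. Nr4a3 was at 0.493 and Nr4a2 at 0.203 CPM per kilobase, higher than 7.41 and 1.46% of the genes tested. Within the NR4A family the mRNA of this muscle was therefore almost wholly that of Nr4a1. All further levels of single genes are in CPM scaled with TMM factors, without regard to length, and differences are on the log2 scale.

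Nr4a1 (gene ID 15370, chr15:101151788-101172676 on the + strand in GRCm39, protein coding) was lowest in the mice that ran 4.2 km/day. Its level in the 6 HFD-50% mice was between 77.3 and 150.0 CPM with a median of 124.0, against 160.6 to 323.9 CPM with a median of 235.0 in HFD-C, so that the groups did not overlap. The difference was -1.01 ± 0.20 (log2 fold change ± SE), a ratio of 0.498, with an exact permutation p = 0.00216, the smallest that 6 against 6 mice allow, and an adjusted p of 0.108 in edgeR. HFD-75% was also lower than HFD-C, with levels of 85.7 to 194.4 CPM around a median of 157.3, and 2 of its 6 mice lay within the HFD-C range. That difference was -0.62 ± 0.19, with an exact permutation p = 0.00866 and an adjusted p of 0.577 in edgeR. HFD-25% ranged from 101.8 to 262.7 CPM with a median of 205.7, and HFD-U from 125.7 to 341.6 CPM with a median of 204.6. Neither passed against HFD-C, at -0.24 ± 0.21 and -0.12 ± 0.21 (exact permutation p = 0.310 and 0.543). The AIN93G diet made no detectable difference at rest, since NFD-C lay between 192.3 and 322.0 CPM with a median of 218.3 and differed from HFD-C by -0.01 ± 0.17 (exact permutation p = 0.970).

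Among the running mice, Nr4a1 was lower in HFD-50% than in both the shortest and the longest distance. The log2 fold change was -0.76 ± 0.23 against HFD-25% (exact permutation p = 0.0238, adjusted p = 0.9998 in edgeR) and -0.89 ± 0.22 against HFD-U (exact permutation p = 0.00866, adjusted p = 0.205 in edgeR). Against HFD-75% it was -0.38 ± 0.20 and did not pass (exact permutation p = 0.134), although it did without HFD-50% replicate 3 or HFD-75% replicate 5, at -0.46 and -0.51. These comparisons share the HFD-50% mice with each other and with the comparison against HFD-C. Ordered by mean, the groups ran from HFD-C at 238 ± 55.0 CPM (SD, n = 6) through NFD-C at 236 ± 48.9, HFD-U at 220 ± 73.4, HFD-25% at 201 ± 61.0 and HFD-75% at 155 ± 38.8 to HFD-50% at 119 ± 30.2. Each step between neighbours in this order was smaller than the larger SD of the pair. Over all 6 groups Nr4a1 was the single member that passed after adjustment, with an adjusted p of 0.0349 in edgeR. Within the 24 running mice a curve fitted to distance (linear plus quadratic) passed at the unadjusted limit with an adjusted p of 0.283 in edgeR, whereas a linear term alone did not pass.

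The lower Nr4a1 of HFD-50% kept its unadjusted call under all 8 alternative settings and with any 1 of the 12 libraries left out, with log2 fold changes between -1.24 and -0.89. Its adjusted p fell under 0.05 in 4 of the 8, at 0.000728 with DESeq2, 0.0189 with no minimum count, 0.0219 with mouse number as a block and 0.0186 in 1 fit over all 36 mice. Against the HFD-C mice with a low rRNA-linked share alone, replicates 5 and 6 at 323.9 and 238.5 CPM, the log2 fold change was -1.24. With this share added to the model the differences from HFD-25% and from HFD-U no longer passed, at -0.47 and -0.59. The adjusted p over 6 groups rose to 0.0520 with that term and to 0.142 in mice numbered 2 to 6. It lay between 0.0513 and 0.0820 when NFD-C replicate 2 or 3, HFD-C replicate 1 or 3, or HFD-50% replicate 1, 4, 5 or 6 was left out.

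**Figure D1:**
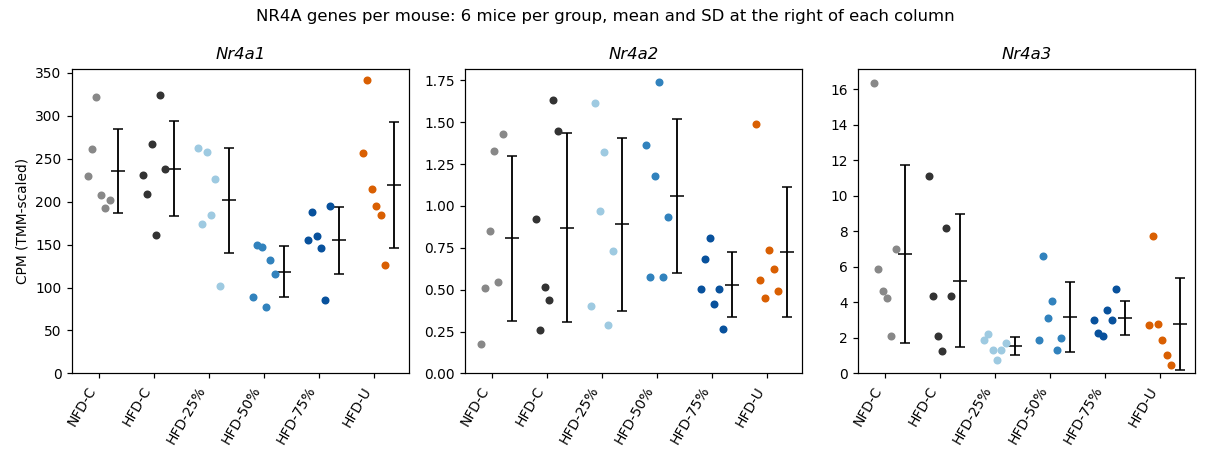
Level of Nr4a1, Nr4a2 and Nr4a3 in each of the 36 mice, in TMM-scaled CPM on linear axes that start at 0, by group on the horizontal axis. Points are mice and the bar at the right of each column is the mean with its SD (n = 6). The HFD-50% points of Nr4a1, from 77.3 to 150.0, all lie below the lowest HFD-C mouse at 160.6, and the HFD-25% points of Nr4a3 lie together between 0.741 and 2.20.

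Nr4a3 (gene ID 18124, chr4:48045098-48086446 on the + strand) was lowest in the mice with the shortest distance. The 6 HFD-25% mice lay between 0.741 and 2.20 CPM with a median of 1.52, and the HFD-C mice between 1.26 and 11.1 CPM with a median of 4.35. The lowest HFD-C mice were inside the HFD-25% range, whereas the highest were well above it. The log2 fold change was -1.78 ± 0.45, a ratio of 0.291, with an exact permutation p = 0.0260. The adjusted p was 0.332 in edgeR and 0.0248 in DESeq2. HFD-50%, at 1.35 to 6.63 CPM with a median of 2.57, was higher than HFD-25% by 1.06 ± 0.38 (exact permutation p = 0.0433, adjusted p = 0.9998 in edgeR). Without HFD-50% replicate 2, the highest of its group, that difference was 0.72 and no longer passed, nor did it with the rRNA-linked share added to the model, at 0.74. Over the longer distances Nr4a3 did not pass against HFD-C. HFD-75% had a median of 3.03 CPM between 2.08 and 4.74, and HFD-U had a median of 2.30 between 0.493 and 7.72. The log2 fold changes were -0.72 ± 0.48 for HFD-50%, -0.75 ± 0.42 for HFD-75% and -0.91 ± 0.56 for HFD-U, with exact permutation p = 0.346, 0.416 and 0.171. Single libraries decided these calls. The first passed at -1.05 without HFD-50% replicate 2, the second at -0.91 or -0.95 without HFD-C replicate 3 or 4, and the third at -1.53 without HFD-U replicate 2. HFD-50% differed from HFD-75% by 0.04 ± 0.35 and from HFD-U by 0.19 ± 0.53.

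NFD-C held the highest values of Nr4a3, from 2.12 to 16.3 CPM with a median of 5.25, and differed from HFD-C by 0.36 ± 0.49 (exact permutation p = 0.500). Over 6 groups Nr4a3 passed at the unadjusted limit, with an adjusted p of 0.106 in edgeR that became 0.0309 without HFD-U replicate 2 and 0.0141 in DESeq2. It no longer passed with the rRNA-linked share added to the model or in mice numbered 2 to 6, with adjusted p of 0.545 and 0.396. Within the running mice its curve over distance did not pass, with an adjusted p of 0.611 in edgeR, but it did so at the unadjusted limit without HFD-75% replicate 3 or without HFD-U replicate 2, 5 or 6. The lowest Nr4a3 and the lowest Nr4a1 thus fell in different groups, HFD-25% and HFD-50%, with no test made of that difference.

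Nr4a2 (gene ID 18227, chr2:56996845-57014018 on the - strand) was near the limit of detection, with 4 to 30 reads per library. Its group medians lay between 0.506 CPM in HFD-75% and 1.06 CPM in HFD-50%, and all groups overlapped. In fits with no minimum count HFD-50% was above HFD-75% by 0.96 ± 0.44 (exact permutation p = 0.0281, adjusted p = 0.619 in edgeR), and the other 7 comparisons of Nr4a2 gave exact permutation p between 0.160 and 0.907.

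Fos (gene ID 14281, chr12:85520664-85524048 on the + strand), the partner of the JUN proteins in AP-1, had the widest spread between mice of the same group among the members. In HFD-C it ran from 5.28 to 83.4 CPM with a median of 14.2, and replicate 6 held the highest value of all 36 mice. NFD-C lay between 4.90 and 50.4 CPM with a median of 12.9. HFD-25% was confined to 5.94 to 21.5 CPM with a median of 9.99, and HFD-50% to 7.76 to 14.7 CPM with a median of 10.5. HFD-75% ran from 3.68 to 48.3 CPM with a median of 12.4, and HFD-U from 2.30 to 48.2 CPM with a median of 13.5. The log2 fold changes against HFD-C were -1.10 ± 0.57 for HFD-25%, -1.10 ± 0.54 for HFD-50%, -0.52 ± 0.69 for HFD-75%, -0.39 ± 0.67 for HFD-U and -0.30 ± 0.66 for NFD-C. None of them passed in edgeR, and exact permutation p over all 8 comparisons of Fos lay between 0.487 and 0.922. HFD-C replicate 6 set much of these values. Without it they were -0.11 for HFD-25% and -0.12 for HFD-50%, and the values for HFD-75%, HFD-U and NFD-C turned to 0.45, 0.59 and 0.67. Leaving out HFD-C replicate 3, 4 or 5 instead brought both HFD-25% and HFD-50% past the unadjusted limit, at -1.31 to -1.27 and -1.31 to -1.28, and HFD-25% also passed without its own replicate 5, at -1.40. Against the low-share HFD-C replicates 5 and 6, of which replicate 6 is that mouse, the fold changes of HFD-25% and HFD-50% were -1.998 and -2.01. HFD-50% differed from HFD-U by -0.72, which did not pass, and by -0.95, which did, without HFD-U replicate 3.

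Junb (gene ID 16477, chr8:85703538-85705377 on the - strand), an AP-1 subunit with weaker activation than JUN, had group medians between 8.78 CPM in NFD-C and 12.7 CPM in HFD-C. All groups overlapped over the range of 2.89 to 20.5 CPM, and exact permutation p was between 0.442 and 0.998 in the 8 comparisons. Without HFD-C replicate 4, which had the lowest Junb of all, the fold change of HFD-25% against HFD-C was -0.53 and passed. Jun (gene ID 16476, chr4:94937273-94940459 on the - strand), the main DNA-binding partner of FOS, was among the most even members. It ranged from 55.6 to 178.5 CPM over the 36 mice, with group medians between 99.8 CPM in HFD-U and 136.0 CPM in HFD-75%. Its smallest exact permutation p was 0.0931, in NFD-C against HFD-C, where the means were 101 ± 20.6 and 124 ± 19.97 CPM (SD, n = 6). This difference of -0.29 did not pass in edgeR, but did so without NFD-C replicate 3 or HFD-C replicate 5, at -0.38 and -0.34. HFD-U, with a mean of 106 ± 16.1 CPM, differed from HFD-C by -0.22 (exact permutation p = 0.106) and did not pass. With mouse number as a block, which these groups support, the difference was -0.22 and passed at the unadjusted limit, with an adjusted p of 0.441 in edgeR. Without HFD-U replicate 2 it was -0.29 and passed.

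Egr1 (gene ID 13653, chr18:34994260-34998009 on the + strand), an activator induced through serum response factor, was the single member that passed between the diets at rest. NFD-C lay between 7.09 and 33.5 CPM with a median of 11.3, and HFD-C between 4.30 and 12.2 CPM with a median of 7.08. The difference was 1.01 ± 0.37, with an adjusted p of 0.9996 in edgeR, and the exact permutation test gave p = 0.0779, which misses the limit. It did not pass without NFD-C replicate 3, at 0.60, or in 1 fit over all 36 mice. The medians of the running groups lay between 5.62 CPM in HFD-50% and 8.04 CPM in HFD-25%. HFD-50% held both the lowest Egr1 of the 36 mice, 1.39 CPM, and a mouse at 16.3 CPM. None of the 7 comparisons with a running group passed, with exact permutation p between 0.474 and 0.907.

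Atf3 (gene ID 11910, chr1:190902493-190915530 on the - strand) missed the limit in all 8 comparisons, with exact permutation p between 0.132 and 0.833, but single libraries moved it. In HFD-50% it ran from 1.29 to 21.7 CPM with a median of 3.71, and the highest value of all mice was that of replicate 4. HFD-C lay between 3.69 and 9.48 CPM with a median of 6.96. With all mice the difference was -0.10, which turned to 0.27 with the rRNA-linked share in the model, and without HFD-50% replicate 4 it was -1.09 and passed at the unadjusted limit, with an adjusted p of 0.255 in edgeR. HFD-U ran from 2.35 to 12.4 CPM with a median of 4.68, and without its replicate 1 it differed from HFD-C by -0.73 and passed. HFD-25%, at 3.46 to 6.20 CPM, differed from HFD-C by -0.46, which passed without HFD-C replicate 2 or 5, at -0.53 and -0.58. HFD-50% replicate 4 also held the highest Btg2 and Nr4a2 and the lowest Nr4a1 and Egr1 of the 36 mice. Its neutrophil markers summed to 12.8 CPM, the first of 36, and its satellite cell and fibroblast markers to 7.61 and 194 CPM, the last of 36, and the part of these in its values was not tested.

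Ier2 (gene ID 15936, chr8:85387960-85389481 on the - strand) was the steadiest of the members, with values from 4.57 to 12.6 CPM and group medians between 6.40 CPM in HFD-U and 8.73 CPM in NFD-C. Its exact permutation p was between 0.400 and 0.881. Btg2 (gene ID 12227, chr1:134002603-134006893 on the - strand) had group medians between 13.3 CPM in HFD-U and 18.8 CPM in NFD-C. The mean of HFD-50% was 23.2 ± 21.1 CPM because replicate 4 stood at 65.9 CPM, while its median was 15.9 CPM. Its exact permutation p was between 0.558 and 0.911 in the 8 comparisons. For each of the 10 members, all 5 steps between groups that were neighbours in the order of means were smaller than the larger SD of the pair.

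**Figure D2:**
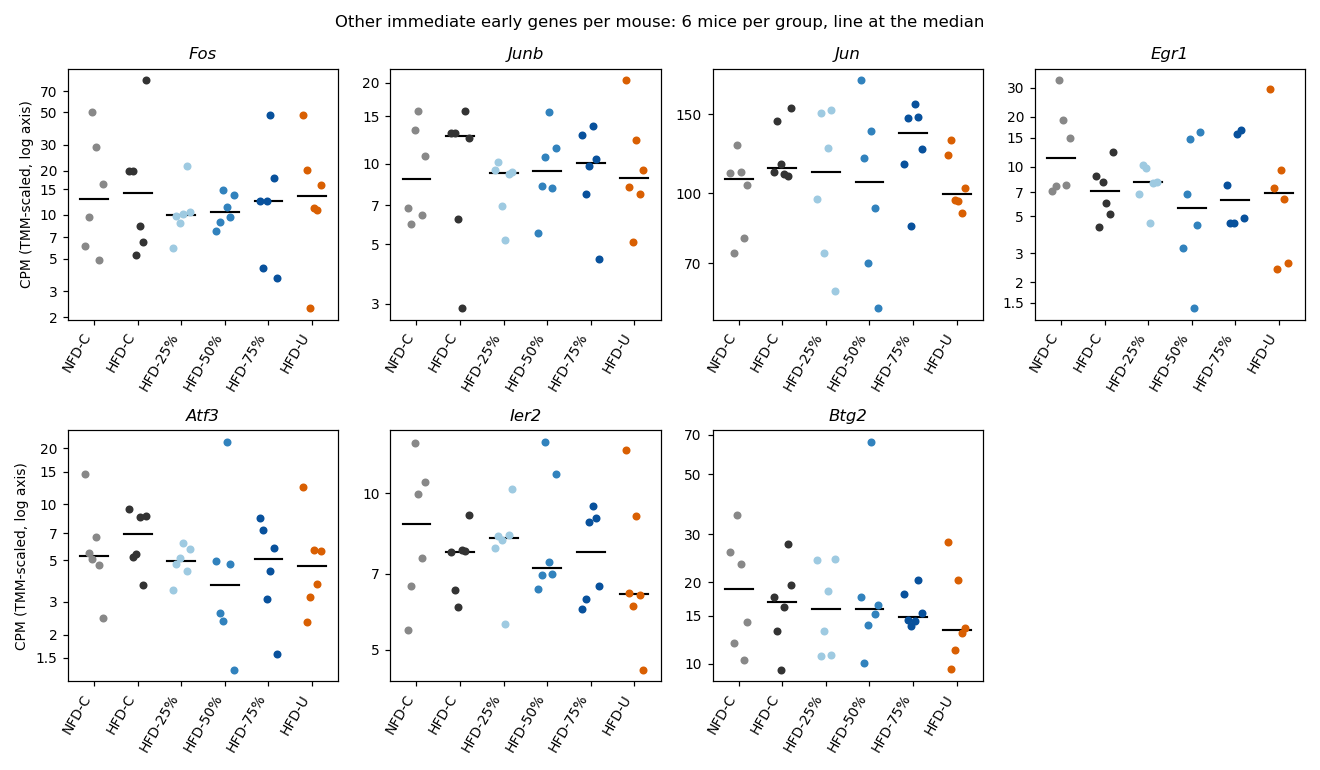
Level of Fos, Junb, Jun, Egr1, Atf3, Ier2 and Btg2 in each of the 36 mice, in TMM-scaled CPM on log axes, by group on the horizontal axis. Points are mice and the line is the median of 6. The groups overlap in each panel, and single mice stand apart, such as the HFD-C mouse at 83.4 CPM of Fos and the HFD-50% mouse at 65.9 CPM of Btg2.

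Counted over the 9 members tested, few passed an unadjusted p of at most 0.05 in any comparison, and the share of all genes that passed stands beside each count. Against HFD-C there was 1 in NFD-C (Egr1, higher) where 4.12% of genes passed, 1 in HFD-25% (Nr4a3, lower) where 6.98% passed, 1 in HFD-50% (Nr4a1, lower) where 10.7% passed, 1 in HFD-75% (Nr4a1, lower) where 5.47% passed, and 0 in HFD-U where 5.46% passed. With mouse number as a block, 1 passed in HFD-U (Jun), and 1232 genes in place of 657 did so. HFD-50% had 2 against HFD-25% (Nr4a1 lower and Nr4a3 higher) where 2.69% passed, 0 against HFD-75% where 5.37% passed, and 1 against HFD-U (Nr4a1, lower) where 12.4% passed. Over 6 groups 2 members passed (Nr4a1 and Nr4a3) with 12.2% of genes, and over the distance 1 (Nr4a1) with 8.49%. Each count rests on at most 2 genes, so that the members as a group are not set apart by it. After adjustment Nr4a1 passed over 6 groups, where 1.45% of genes did, and no member passed elsewhere. The share of all genes past the adjusted limit was 0.0082% in HFD-25%, 0.00844% in HFD-50% against HFD-U, 0.0419% over the distance and 0% in the other 6 comparisons. Only Nr4a1 in HFD-50% against HFD-C had groups that did not overlap, which was true of 0.792% of all genes there, and no member had such groups in the other 7 comparisons. The median log2 fold change of the members against HFD-C was -0.24 for HFD-25%, -0.12 for HFD-U and -0.10 for each of HFD-50% and HFD-75%, where the median of all genes lay between -0.01 and 0.01.

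**Figure D3:**
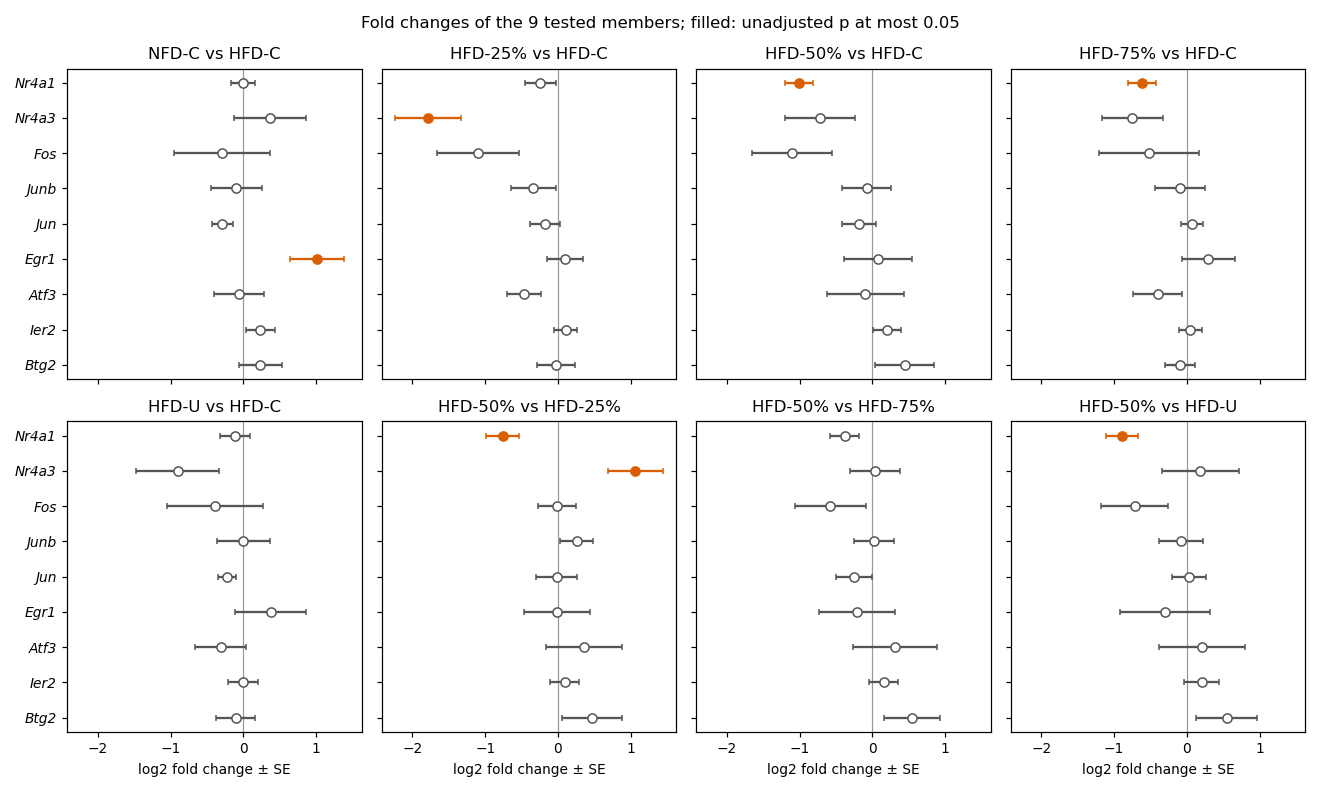
Log2 fold change with its SE on the horizontal axis for the 9 tested members, in the 5 comparisons with HFD-C and the 3 of HFD-50% with other running groups. Filled points have an unadjusted p of at most 0.05. The filled points are Nr4a1 in 4 panels, from -1.01 to -0.62, Nr4a3 in 2 panels, at -1.78 and 1.06, and Egr1 in 1 panel, at 1.01.

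Between mice of the same group most members varied more than other genes did. The SD of log2 CPM within groups was 1.17 for Fos, 0.96 for Egr1, 0.90 for Nr4a3 and 0.85 for Atf3, higher than in 99.3, 98.4, 97.9 and 97.3% of the 12053 genes tested, whose median SD was 0.31. Junb and Btg2, at 0.63 and 0.62, exceeded 91.3 and 90.8% of genes. Nr4a1, Jun and Ier2 were the steadier members, at 0.41, 0.41 and 0.36, which is above 70.0, 69.1 and 61.6% of genes. Lowly counted genes have larger sampling error, and the mean counts of Nr4a3, Atf3, Fos and Egr1 were 69.7, 105, 276 and 161. The genes compared were not matched by count, and the part of sampling error in these SDs was not tested. With this spread, 6 mice per group gave SEs of 0.545 to 0.69 for the fold changes of Fos against HFD-C and of 0.17 to 0.21 for those of Nr4a1.

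This variation was shared by some members and not by others. Correlations over the 36 mice were computed on deviations of log2 CPM from group means for 36 pairs of members, with permutation within groups and adjustment over the 36 pairs. Positive correlations passed for 8 pairs and negative ones for none. The closest pair was Egr1 and Ier2, with Pearson's r = 0.791 (adjusted permutation p = 0.00036, unadjusted p = 1e-05, which is the smallest that 100000 permutations can give) and Spearman's rho = 0.763 (adjusted permutation p = 0.00036), and with r = 0.788 without the 2 mice farthest from the median of Egr1. Fos correlated with Junb (r = 0.650, rho = 0.676), with Egr1 (r = 0.631, rho = 0.611) and with Ier2 (r = 0.578, rho = 0.574), with adjusted permutation p of 0.0054, 0.00072 and 0.00594 for r. Junb correlated with Ier2 (r = 0.538, rho = 0.582), Btg2 (r = 0.474, rho = 0.455) and Egr1 (r = 0.453, rho = 0.520), with adjusted permutation p of 0.00799, 0.0243 and 0.035. Fos, Junb, Egr1 and Ier2 thus rose and fell together from mouse to mouse in all 6 of their pairs. In the 26 libraries with a low rRNA-linked share the r of these 6 pairs lay between 0.465 and 0.786, and in mice numbered 2 to 6 between 0.334 and 0.758. Without the 2 farthest mice they were between 0.485 and 0.788.

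Atf3 paired with Btg2 (r = 0.578, rho = 0.517, adjusted permutation p = 0.0216), with r = 0.428 without the 2 mice farthest in Atf3. Nr4a1 was outside the group of Fos. Its r was -0.02 with Fos, 0.05 with Junb, 0.08 with Ier2 and 0.23 with Egr1, and its closest member was Nr4a3 at r = 0.396 (rho = 0.315, adjusted permutation p = 0.0867). With Atf3 it had r = -0.37 (rho = -0.37, adjusted permutation p = 0.124). Jun correlated with no member past the limit, and its largest r was 0.337 with Atf3. The median over the 36 pairs was 0.165.

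**Figure D4:**
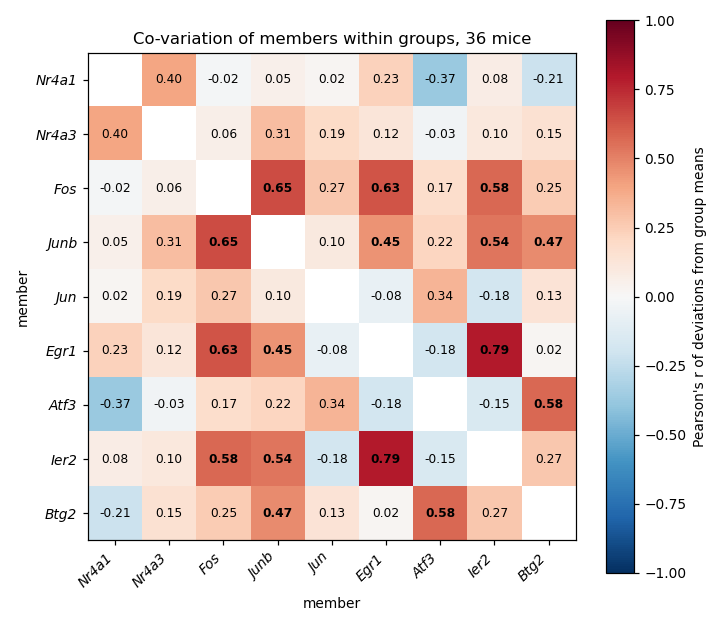
Pearson's r between members over 36 mice, computed on deviations of log2 CPM from group means, with both axes listing the 9 tested members and colour from -1 to 1. Bold values are the 8 pairs with an adjusted permutation p of at most 0.05, and they include all 6 pairs of Fos, Junb, Egr1 and Ier2, from 0.45 to 0.79.

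The genes whose pattern was most like the mean of the 9 members over the 36 libraries were Otud1 (r = 0.649), Laptm5 (0.606), Dusp1 (0.599), Hp (0.591), C4b (0.574), Ostc (0.534), Trf (0.534), Sarnp (0.529), Tent5a (0.528) and Prss23 (0.527). On deviations from group means their r lay between 0.459 and 0.664. Dusp1 encodes a MAP kinase phosphatase and is itself an immediate early gene, Hp encodes haptoglobin and C4b a complement component. All points come from the same libraries and share their depth, and the values are descriptions. Among the members, each of which counts equally in that mean, Fos (r = 0.760) and Junb (0.747) correlated most with it and Nr4a1 (0.302) least.

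Of 47 other immediate early genes, 37 or 38 were tested in each comparison. Against HFD-C, HFD-25% had 3 that were higher and 7 that were lower, HFD-50% had 3 and 1, HFD-75% had 2 and 7, HFD-U had 1 and 6, and NFD-C had 0 and 1. The 4 of 37 that passed in HFD-50% stand beside 10.7% of all genes, with a list median of -0.03. In HFD-25%, HFD-75% and HFD-U 10, 9 and 7 of 38 passed, beside 6.98, 5.47 and 5.46% of all genes. The list medians there were -0.07, -0.12 and -0.18. In NFD-C 1 of 37 passed beside 4.12% of all genes, with a list median of -0.09. HFD-50% had 8 higher and 3 lower than HFD-U, where 12.4% of all genes passed. The 3 with the smallest p in HFD-50% against HFD-C were Zfp36l1, which binds AU-rich mRNAs (0.68 ± 0.13), the repressor Klf10 (1.03 ± 0.26) and Dusp1 (-0.76 ± 0.22). Zfp36l1 and Klf10 were also higher than in HFD-U, by 0.91 ± 0.15 and 1.41 ± 0.27, as was the kinase gene Pim1, by 0.998 ± 0.23.

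Of the 22 genes of the signals and factors upstream 21 were tested. In HFD-50% against HFD-C 1 was higher and 2 were lower, namely Mrtfa (-0.82 ± 0.21) and Srf (-0.37 ± 0.15), which encode a coactivator and its partner serum response factor, and Elk3, a ternary complex factor, was higher (0.52 ± 0.24). Against HFD-U 0 were higher and 3 lower, namely Mrtfa (-0.91 ± 0.25), Map2k1 (-0.37 ± 0.12) and Srf (-0.36 ± 0.15). The 3 of 21 that passed in each stand beside 10.7% of all genes against HFD-C and 12.4% against HFD-U, so that the list is not set apart by them. In the other comparisons with HFD-C at most 1 gene of this list passed. Of the 15 genes of binding partners of the members and kin of Btg2, 14 were tested. In HFD-50% against HFD-C 1 was higher and 2 were lower, with Tob1 at -0.73 ± 0.19, Btg1 at 0.42 ± 0.15 and Tob2 at -0.35 ± 0.16. All 3 are listed as kin of Btg2. Against HFD-U Tob1 (-0.62 ± 0.21) and Rxrg (-0.51 ± 0.20), an RXR partner of the NR4A receptors, were lower and Btg1 (0.39 ± 0.14) was higher. Of the 12 genes of glucose use that have been linked to NR4A, 1 was lower in HFD-50% than in HFD-C, Bpgm (-0.54 ± 0.17), and the next by p, which did not pass, were Pgm2 (0.49 ± 0.23) and Pgam2 (-0.42 ± 0.27). Against HFD-U Pgm2 was higher (0.68 ± 0.27) and Bpgm lower (-0.36 ± 0.14), and Pgm1, which did not pass, had -0.47 ± 0.24. In the other 4 comparisons with HFD-C 0 of these 12 passed. The 3 of 14 partners or kin and the 1 of 12 glucose use genes in HFD-50% against HFD-C stand beside 10.7% of all genes. Against HFD-U 3 of 14 and 2 of 12 stand beside 12.4%. In HFD-75% against HFD-C 2 of the 14 partners or kin were higher and 1 was lower, where 5.47% of all genes passed. HFD-25% had 1 higher and 1 lower than HFD-C, where 6.98% passed, and HFD-U and NFD-C had 0.

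Clock and glucocorticoid genes also passed, and against HFD-C they did so mostly in HFD-50% and HFD-75%. Of 16 clock genes tested, HFD-50% had 2 that were higher and 4 that were lower than in HFD-C, HFD-75% had 3 and 7, HFD-25% had 0 and 1, and HFD-U had 1 and 0. HFD-50% differed from HFD-U in 10 of the 16, with 2 higher and 8 lower. From HFD-25% it differed in 2, with 1 higher and 1 lower, and from HFD-75% in 0. Of all genes, 10.7% passed against HFD-C in HFD-50%, 5.47% in HFD-75%, 6.98% in HFD-25% and 5.46% in HFD-U, and 12.4% passed in HFD-50% against HFD-U. In HFD-50% 2.69% passed against HFD-25% and 5.37% against HFD-75%. Bhlhe40, a repressor of the clock, was at -0.89 ± 0.17 and the clock repressor gene Nr1d1 at -0.86 ± 0.24 in HFD-50% against HFD-C, and Nfil3 was at 0.94 ± 0.29. Against HFD-U Bhlhe40, Nr1d1 and Bhlhe41 were at -1.17 ± 0.19, -1.56 ± 0.28 and -1.18 ± 0.28. Of 11 glucocorticoid response genes, HFD-50% had 6 above HFD-C, HFD-75% had 3, HFD-25% had 1 and HFD-U had 0, and 0 were lower in these groups. Fkbp5, which encodes a chaperone of the glucocorticoid receptor, was higher by 1.52 ± 0.36, Cdkn1a by 1.48 ± 0.51 and Zbtb16 by 0.68 ± 0.26. Against HFD-U these 3 were higher by 0.90 ± 0.24, 1.49 ± 0.50 and 0.71 ± 0.19. Of the 11, HFD-50% had 3 above HFD-25%, 2 above HFD-75%, and 6 above and 1 below HFD-U. Of the rRNA-linked features, 2 of 4 were lower in HFD-50% than in HFD-C, LOC118568312 (-2.72 ± 0.58) and AY036118 (-2.70 ± 0.59), while mt-Rnr1 was at 0.37 ± 0.30. No gene of these lists had an adjusted p of at most 0.05 in a comparison of 2 groups. Over 6 groups 2 other immediate early genes, 1 upstream gene, 3 clock genes, 2 glucocorticoid response genes and 2 rRNA-linked features did, where 1.45% of all genes did. Over the distance 2 other immediate early genes and 2 clock genes did, where 0.0419% of all genes did. The lists were chosen with earlier results of these data known, so that these counts are no test of enrichment. The part of time of day, of stress hormones and of this share in the levels of Nr4a1 was not tested.

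Markers of other cells were read as sums. Endothelial markers summed to 121 to 238 CPM in HFD-C and 137 to 281 CPM in HFD-50%, fibroblast markers to 311 to 565 and 194 to 478 CPM, macrophage markers to 20.7 to 36.2 and 20.4 to 33.8 CPM, and smooth muscle markers to 26.8 to 110 and 58.3 to 104 CPM. In HFD-50% against HFD-C 1 of 6 endothelial markers was higher, 1 of 5 fibroblast markers was lower, and 0 of 4 macrophage, 5 blood, 4 Schwann cell and 7 muscle fibre markers tested passed. In HFD-75% against HFD-C, where Nr4a1 was also lower, 3 of 5 fibroblast markers (median -0.48), 2 of 4 macrophage markers (median -0.42) and 1 of 5 blood markers were lower and 1 of 3 satellite cell markers was higher. In HFD-25%, where Nr4a3 was lower, 2 of 5 fibroblast and 1 of 3 adipocyte markers were lower and 1 of 6 endothelial markers was higher. No NR4A gene passed in HFD-U or in NFD-C against HFD-C. In HFD-U 2 of 3 adipocyte, 1 of 4 macrophage, 1 of 5 blood, 1 of 3 satellite cell and 1 of 4 Schwann cell markers were lower. In NFD-C 1 of 4 macrophage markers was lower. Of all genes, 10.7% passed in HFD-50%, 5.47% in HFD-75%, 6.98% in HFD-25%, 5.46% in HFD-U and 4.12% in NFD-C. The part of these markers in the levels of the NR4A genes was not tested. HFD-C replicate 6, with the highest Fos, held the lowest sum of smooth muscle markers, 26.8 CPM, and the second highest of adipocyte markers, 61.8 CPM.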

How the data were processed

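Total RNA of gastrocnemius muscle was made into 1 poly(A) selected, paired-end library per mouse, for 36 mice in 6 groups. Per the labels and the study's methods, the authors aligned reads with HISAT2 2.0.5 and counted them on genes with featureCounts 1.5.0-p3, and the deposited values are raw counts without normalization. The submitters' processing notes also name StringTie 1.3.3b, DESeq2 1.20.0, edgeR 3.22.5 and mm10, but the chromosome sequences named in the count table are those of GRCm39, and gene positions are given on that build. Strand use in counting is not given in the sources used here, and no other feature of the table overlapped the span of a member. The 562 features without a symbol (0.262% of counts) stayed in the library sizes.

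Models were fitted with edgeR 4.0.16 under R 4.3.3. Each comparison used its own groups alone, genes whose mean count reached 25, and TMM factors, and was tested with the two-sided quasi-likelihood F-test. P-values were adjusted over all genes of the fit by Benjamini-Hochberg, and called at 0.05 unadjusted, as in the study, or adjusted. NFD-C and each running group were compared with HFD-C, and HFD-50% with each of the other running groups. All 6 groups were tested together over 36 mice, and distance over 24. The comparisons share control mice. A two-sided exact permutation test of the difference in mean log2 CPM over the 924 arrangements of 6 against 6 mice was added for single members after the data were seen, in 80 tests without adjustment. The model was tested on simulated data, in which 115 of 195 changed genes were recovered with 2 false calls for HFD-50% against HFD-C. The simulated libraries were independent. They held neither the split in rRNA-linked share nor the shared deviations of same-numbered mice, so that false calls from these were not measured.

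Alternatives were DESeq2 1.42.0, size factors of the RLE method, no minimum count, mouse number as a block, a covariate for the rRNA-linked share, HFD-C libraries with a low share alone, mice numbered 2 to 6 alone, 1 fit over all mice, other forms of the distance, and each library left out. Same-numbered mice of HFD-U and HFD-C deviated together in all 6 pairs (correlations of 0.125 to 0.510). This pairing comes from the data and not from the labels. Blocked values stand beside that comparison for Jun and for the count of members called, and its other printed values have no block. With the block the differences of Nr4a1, Nr4a3, Fos and Atf3 were -0.15, -0.95, -0.12 and -0.43, and none of these passed. Libraries of 1 group differed by 16.5 to 210 times the sampling variance, and none were duplicates. The sources do not state litters or cages, so p-values measure the spread between these mice. Counting error alone is covered by no interval here.

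The members and gene lists were chosen with earlier results of these data known. Named were all 10 members, the 3 genes with the smallest p of each list in HFD-50% against HFD-C and against HFD-U, and the 10 genes most correlated with the mean standardized log2 CPM of the members. Genes of markers and single libraries were named after their values were seen.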

Additional observations from a re-analysis of the deposited data

Results flagged for a closer look

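Of 60 sets of 6 mice (10 members in 6 groups), 11 held a value set apart from the other 5 by Dixon's test at the 95% level. About 3 would be expected if the sets were independent and normally distributed. The test used CPM without logs and the sets share libraries, so that 3 is not the number due to chance here. All 11 were high values. For Fos these were HFD-C replicate 6 at 83.4 CPM, HFD-25% replicate 5 at 21.5 CPM and HFD-75% replicate 4 at 48.3 CPM. HFD-U replicate 1 stood apart in Nr4a2 at 1.49 CPM, in Egr1 at 29.3 CPM and in Atf3 at 12.4 CPM. HFD-50% replicate 4 did so in Atf3 at 21.7 CPM and in Btg2 at 65.9 CPM, NFD-C replicate 1 in Nr4a3 at 16.3 CPM and in Atf3 at 14.5 CPM, and HFD-U replicate 2 in Nr4a3 at 7.72 CPM. No value of Nr4a1, Junb, Jun or Ier2 was set apart.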

How the results depend on the processing

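The 7 member fold changes that passed an unadjusted p of 0.05 kept their direction under all alternatives and with each library left out. Of all 72 member fold changes, 42 changed sign at least once, none of them among those 7, and the largest of the 42 was 0.579 in size. Among the values printed, Nr4a1 in NFD-C against HFD-C turned to 0.0024 with mouse number as a replicate block and to 0.090 with the rRNA-linked covariate, Fos there to 0.25 with that covariate, and Nr4a3 in HFD-50% against HFD-75% to -0.10 with the block and -0.044 with the covariate. Atf3 in HFD-50% against HFD-C turned to 0.27 with the covariate, 0.080 in mice numbered 2 to 6 and 0.056 against the low-share HFD-C libraries, and lay between -1.09 and 0.11 with single libraries left out. Leaving out single libraries gave -0.13 to 0.088 for Nr4a1, -0.13 to 0.74 for Nr4a3 and -0.86 to 0.67 for Fos in NFD-C against HFD-C, -1.22 to 0.45 for Fos in HFD-75% and -0.97 to 0.59 in HFD-U, and, for Nr4a3 in HFD-50%, -0.30 to 0.19 against HFD-75% and -0.15 to 0.82 against HFD-U.

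Counts of members called at an unadjusted p became, with no minimum count, 2 in NFD-C, HFD-25% and HFD-50% against HFD-C, 2 in HFD-50% against HFD-75% and 2 over distance. With the rRNA-linked covariate they became 2 in HFD-25% and HFD-50% against HFD-C, 0 in HFD-50% against HFD-25% and against HFD-U, and 1 over 6 groups. With the low-share HFD-C libraries alone they were 3 in HFD-25%, 2 in HFD-50% and 3 in HFD-75%. In mice numbered 2 to 6 they were 2 in NFD-C, 1 in HFD-U and 1 over 6 groups. The replicate block gave 1 in HFD-U against HFD-C and 2 over distance, DESeq2 gave 2 over distance, a linear term alone gave 0, and 1 fit over all 36 mice gave 0 in NFD-C. The exact permutation test, added after the data were seen, called 0 in NFD-C against HFD-C and, among the 9 members that reached the minimum count, as many as edgeR in the other 7 comparisons of 2 groups. It also called Nr4a2, which did not reach that count, in HFD-50% against HFD-75%. At an adjusted p, DESeq2 called 1 in HFD-25%, in HFD-50% and in HFD-50% against HFD-U and 2 over 6 groups. The adjusted count in HFD-50% against HFD-C was 1 with no minimum count, with the replicate block and in 1 fit over all mice, and that over 6 groups was 0 with the covariate and in mice numbered 2 to 6. Leaving out single libraries gave 1 to 2 in NFD-C, 1 to 3 in HFD-25%, 1 to 2 in HFD-50%, 1 to 2 in HFD-75% and 0 to 2 in HFD-U against HFD-C, and in HFD-50% 1 to 2 against HFD-25%, 0 to 1 against HFD-75% and 1 to 2 against HFD-U, with 1 to 2 over distance, and 0 to 2 over 6 groups at an adjusted p. The low-share setting leaves 2 control libraries. The cause of these moves was not tested.

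Over all genes, those past an adjusted p of 0.05 numbered 0 in HFD-50% against HFD-C in edgeR and 160 in DESeq2, 154 in 1 fit over all mice, 53 with no minimum count and 50 with the block. Against HFD-U these were 1 and 102, 51, 25 and 26, and over 6 groups 175, with 445 in DESeq2, 257 with no minimum count, 527 with the block and 33 with the covariate. At an unadjusted p, 323 to 1475 genes passed in the 10 tests, and 1397 to 5102 with no minimum count.

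Outside HFD-U against HFD-C, 1 to 5 of 6 pairs of same-numbered mice correlated over 0.1, with 5 in HFD-50% against HFD-C. Mice numbered 1 did so in each of these comparisons, at 0.323 to 0.598. What same-numbered mice share is not given in the sources used here. At these depths Nr4a2 and Nr4a3 are limited by counts of 4 to 30 and 7 to 371 reads per library.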
